A study of Mus musculus with 5 samples.

Results

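Inguinal white adipose tissue of floxed mice on a high-fat diet (HFD) was set against the same depot of floxed mice given vehicle, gene by gene. The comparison uses 2 of the 5 RNA sequencing libraries of the study, Floxed (HFD) and Floxed (Veh), with 1 library per group. Of 53271 genes listed in both deposited tables, 11092 reached 5 FPKM (fragments scaled to transcript length and library total) in the higher of the pair and were compared. The value used is the log2 ratio of HFD to vehicle with a pseudocount of 1 FPKM, centred so that the median ratio of the 8908 genes at 5 FPKM or more in both libraries is 0.

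Both libraries carry the genotype label Floxed, the control for mice named ATRβKO. The title names the adipocyte thyroid hormone receptor β as the subject. The labels give neither the Cre driver, nor the strain, nor an age. Vehicle mice received PBS in 7 daily injections with normal food, and were killed 24 hours after the last dose. Tissue of 3 mice was pooled for that library. HFD mice were fed the diet for 2 to 3 months, and the labels state pooling only for the vehicle and T3 (triiodothyronine) groups. The vehicle library sits in a table with Floxed (T3) and ATRβKO (T3), mice given T3 by the same schedule, and the HFD library in a table with ATRβKO (HFD). Diet, injection, table and any sequencing batch therefore differ together and cannot be told apart. With no replicates there is no error for any value and no test, so only differences of at least 4-fold (a centred log2 ratio of 2 or more in size) are called higher or lower.

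Subcutaneous fat stores triglyceride taken up from the blood and, to a smaller part, fatty acids it makes from glucose. As fat cells enlarge they release more leptin, the hormone that reports fat stores to the brain. Dietary fat is known to lower fatty acid synthesis in fat and liver of mice, and macrophages that take up lipid gather in the fat of obese mice. The inguinal depot of the mouse also surrounds a lymph node and lies against skin and muscle.

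Leptin and the fat expansion genes Mest and Sfrp5 were higher on HFD. The enzymes Acly, Acaca and Elovl6 of fatty acid synthesis, the heat gene Ucp1 and most genes of lymphocytes were lower. By the 4-fold rule 306 genes were higher (2.76% of those compared) and 480 lower (4.33%). These shares are the background for the counts of called members given for each list below. At the threshold, Mybpc2 was just inside with a centred log2 ratio of 2.00 and Apobec2 just outside with 1.995. On the lower side, Birc3 was inside with -2.00 and Stk17b outside with -1.998. Of the 306 higher genes 87 were listed at 0 FPKM in vehicle, and 103 of the 480 lower genes were listed at 0 in HFD. A listed 0 can be a failed estimate, so no fold is given for them. Without predicted and clone-named genes, receptor segments, ribosomal proteins, small RNAs and pseudogenes, 186 higher and 293 lower genes remained.

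**Figure D1:**
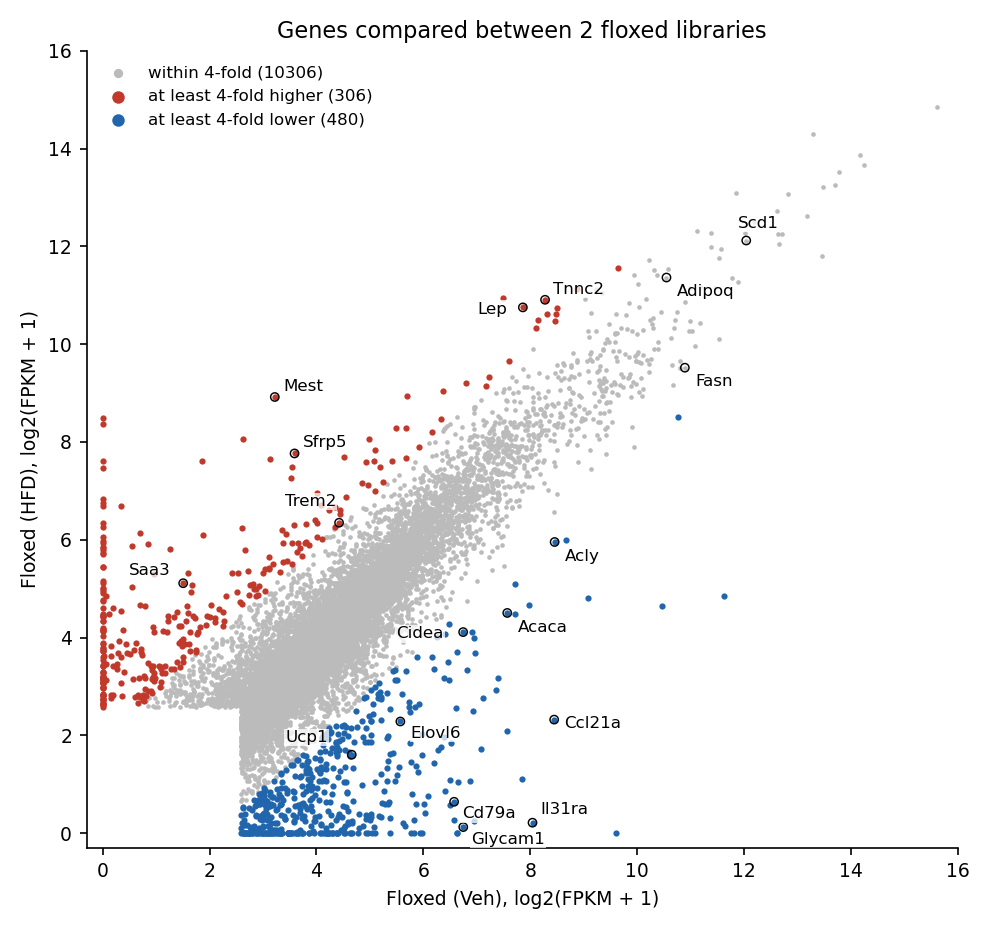
Each point is a gene compared, placed by its level in Floxed (Veh) and Floxed (HFD) as log2(FPKM + 1), with genes at least 4-fold higher in red (306) and lower in blue (480). Lep and Mest lie above the main band, Acly, Acaca and Elovl6 below it, and Scd1 within it.

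The libraries of the vehicle table give a yardstick for these ratios, though they differ in treatment or genotype and are no replicates. Over genes at 5 FPKM or more in both libraries of a pair, the SD of log2 ratios to vehicle was 0.69 for Floxed (HFD). It was 0.40 for Floxed (T3) and 0.25 for ATRβKO (T3). At 4-fold, 7.09% of all genes compared in the pair differed from vehicle in Floxed (HFD), 0.98% in Floxed (T3) and 0.86% in ATRβKO (T3). Of the called genes, 203 higher and 297 lower were also 4-fold away from each of the 3 libraries of the vehicle table. The summed FPKM was 757606 in HFD and 752569 in vehicle. ATRβKO (HFD), the only other library of the HFD table, summed to 1891065 FPKM and differed 4-fold from Floxed (HFD) in 58.9% of genes. Its values, on that other total, are printed below as values only.

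The HFD to vehicle ratio also moved with gene structure. With genes cut into 5 equal bins, the median log2 ratio went from -0.32 in the bin lowest in GC content to 0.15 in the highest. It went from 0.22 in the bin of the shortest transcripts to -0.27 in that of the longest. Across 11059 genes, which are not independent, Spearman's rho was 0.23 with GC content and -0.19 with transcript length, against -0.03 and -0.03 for Floxed (T3) to vehicle. The share of genes called also moved with length, from 6.33% higher and 10.3% lower in the bin of the shortest transcripts to 1.54% and 2.03% in that of the longest. Centring the ratio within bins of GC content and length, a choice made after seeing the data, gave 297 higher and 474 lower genes.

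**Figure D2:**
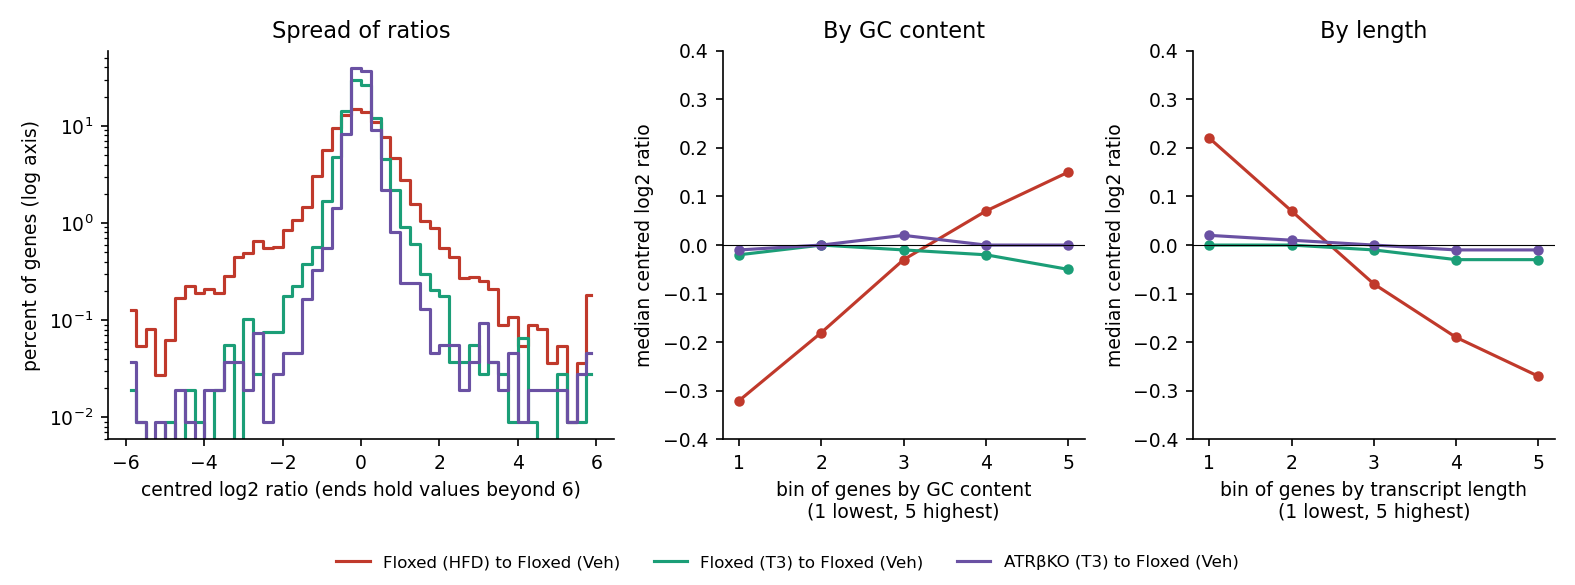
The left panel shows the percent of genes (log axis) by centred log2 ratio for HFD, Floxed (T3) and ATRβKO (T3), each to vehicle, and the others the median ratio in 5 equal bins of genes by GC content and transcript length. HFD to vehicle has the widest spread, with an SD of 0.69 over genes at 5 FPKM or more in both libraries. Its medians run from -0.32 to 0.15 with GC content and from 0.22 to -0.27 with length. The other pairs stay near 0.

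Genes that fat cells secrete were mostly above 0. Lep (ENSMUSG00000059201), which encodes leptin, was at 232 FPKM in vehicle, 140 in Floxed (T3), 206 in ATRβKO (T3), 1723 in Floxed (HFD) and 166 in ATRβKO (HFD). Floxed (HFD) was above every library of the vehicle table, 7.44-fold above vehicle, with a centred log2 ratio of 2.98. Saa3, an acute-phase serum amyloid, stood at 1.84 FPKM in vehicle, 3.53 and 3.87 in the T3 libraries, 33.6 in Floxed (HFD) and 97.6 in ATRβKO (HFD). Floxed (HFD) lay above all 3 libraries of the vehicle table. Adipoq, which encodes adiponectin, was at 1498 FPKM in vehicle and 2632 on HFD, short of 4-fold.

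Over the list of adipokines and secreted proteins, 3 of 19 members compared were 4-fold higher and none lower, and the median log2 ratio was 1.09 against -0.07 for all genes compared. Cfd, which encodes adipsin, had the lowest ratio of the list, at 11230 FPKM in vehicle and 3574 on HFD. Angptl4, an inhibitor of lipoprotein lipase, was at 123 and 407 FPKM. These members were chosen with their values in view, and neither reached 4-fold.

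A list of fat expansion and imprinted genes had a median of 1.22, with 2 of 14 members 4-fold higher. Mest (ENSMUSG00000051855), an imprinted gene known to be expressed with fat expansion in mice, was at 8.32 FPKM in vehicle, 15.2 in Floxed (T3), 16.8 in ATRβKO (T3), 483 in Floxed (HFD) and 28.4 in ATRβKO (HFD). Floxed (HFD) stood above every library of the vehicle table, 58.1-fold above vehicle, with a centred log2 ratio of 5.78. Sfrp5 (ENSMUSG00000018822), which encodes a secreted Wnt inhibitor of fat cells, was at 11.0 FPKM in vehicle, 7.49 and 18.0 in the T3 libraries, 217 in Floxed (HFD) and 176 in ATRβKO (HFD). Floxed (HFD) was 19.6-fold above vehicle and above the T3 libraries too. Among members short of 4-fold, Npr3, the natriuretic peptide clearance receptor, was at 73.5 and 253 FPKM, and Cav1, the caveolar coat protein, at 778 and 1575. Both were chosen with their values in view.

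**Figure D3:**
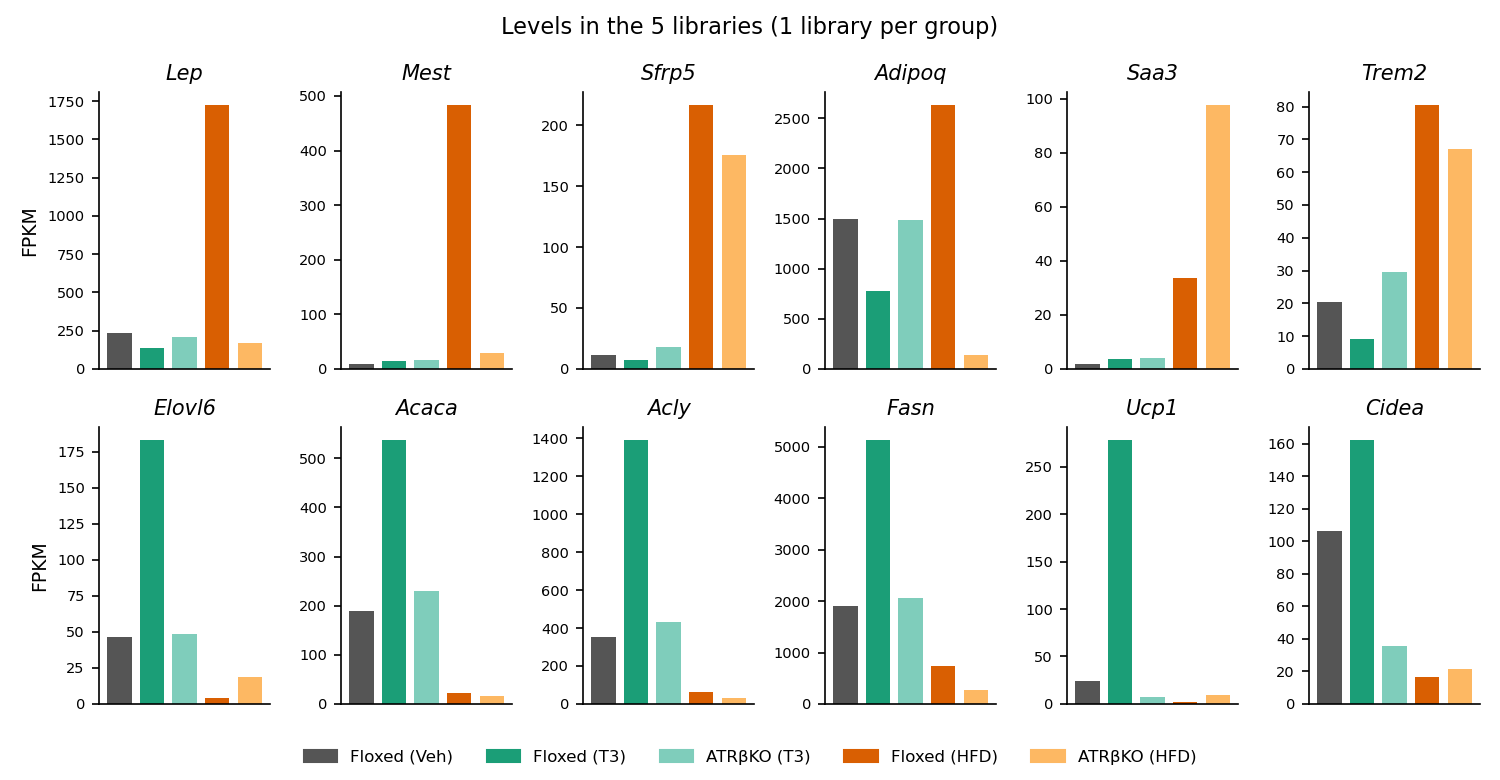
Bars give FPKM in each of the 5 libraries, 1 per group, for 12 genes, each panel with its own axis from 0. Lep (1723 FPKM), Mest (483), Sfrp5 and Saa3 are higher in Floxed (HFD) than in the 3 libraries of the vehicle table, and Elovl6, Acaca and Acly lower. ATRβKO (HFD) has a larger total FPKM and its bars are not on a common scale with the others.

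A group of 3 enzymes of fatty acid synthesis was lower. Acly (ENSMUSG00000020917), which makes cytosolic acetyl-CoA from citrate, was at 350 FPKM in vehicle, 1389 in Floxed (T3), 429 in ATRβKO (T3), 61.0 in Floxed (HFD) and 33.4 in ATRβKO (HFD). Acaca (ENSMUSG00000020532), the acetyl-CoA carboxylase that makes malonyl-CoA, was at 189, 537 and 230 FPKM in those 3 libraries of the vehicle table and at 21.7 and 17.0 in the HFD table. Elovl6 (ENSMUSG00000041220), which elongates palmitate, was at 46.5, 183 and 48.3 FPKM and then at 3.87 and 18.7. In each of the 3 genes Floxed (HFD) was below every library of the vehicle table. The log2 ratios of Floxed (HFD) to vehicle were -2.42, -2.98 and -3.20, which are 5.74-fold, 8.72-fold and 12.0-fold lower levels.

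These were the only 3 of 18 de novo lipogenesis genes called, all lower, and the list's median was -0.43. Fasn, the fatty acid synthase that uses malonyl-CoA, was at 1901 FPKM in vehicle and 732 on HFD, short of 4-fold. Scd1, the main desaturase of fat, was level at 4216 and 4449 FPKM. The regulators of the pathway were also within 4-fold: Srebf1 was at 126 and 88.1 FPKM and Mlxipl, which encodes ChREBP, at 76.2 and 44.8. Both regulators were chosen with their values in view.

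The promoters of Lep and Elovl6 are shown for the leptin gene and the lipogenesis gene with the lowest ratio, as the 250 bases upstream of the RefSeq start on GRCm38.p6, a build other than that of the expression tables. A set of 3 motifs was searched on both strands: TTGCNNAA, a form of the site of the C/EBP factors, CACGTG, the E-box of ChREBP, SREBP and other factors, and CCAAT, the NF-Y site. Capitals mark the match to TTGCNNAA in Lep, which begins 55 bases before the start and was the only match of any of the 3 motifs in either window.
Lep, chr6:29059971-29060220, plus strand: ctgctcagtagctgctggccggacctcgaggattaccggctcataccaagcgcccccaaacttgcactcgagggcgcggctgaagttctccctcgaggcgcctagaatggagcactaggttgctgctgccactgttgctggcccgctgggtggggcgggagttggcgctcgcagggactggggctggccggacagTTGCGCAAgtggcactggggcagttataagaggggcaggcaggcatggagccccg
Elovl6, chr3:129532136-129532385, plus strand: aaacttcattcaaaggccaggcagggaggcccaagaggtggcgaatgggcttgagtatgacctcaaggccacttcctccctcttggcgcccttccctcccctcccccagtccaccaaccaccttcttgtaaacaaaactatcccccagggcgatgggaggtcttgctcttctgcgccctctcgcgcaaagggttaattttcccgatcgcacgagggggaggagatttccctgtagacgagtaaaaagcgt
Among 32851 such windows of all genes, 9.6% held TTGCNNAA, 6.0% CACGTG and 33.8% CCAAT. A match is a description of letters and no match says nothing about a factor.

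Uptake and storage genes lay somewhat above 0 with few called. For fatty acid uptake and triglyceride synthesis 1 of 20 was 4-fold higher, beside 2.76% of all genes compared, with a median of 0.40. Bin medians of all genes ran from -0.32 to 0.15 with GC content and from 0.22 to -0.27 with length. A median of 0.40 is thus no large difference here. The called gene was Mogat2, a monoacylglycerol acyltransferase, at 1.25 FPKM in vehicle and 9.65 on HFD. Lpl, the lipoprotein lipase that frees fatty acids from blood lipids, was at 1273 and 2908 FPKM, and Dgat2, which adds the last fatty acid of triglyceride, at 540 and 1225.

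Lipolysis and lipid droplet genes had a median of 0.84, with 15 of 17 above 0. Fitm1, a lipid droplet protein known mainly from muscle, was 4-fold higher, at 2.54 and 17.6 FPKM, and Cidea was 4-fold lower. The Fitm1 log2 ratio of 2.48 was 1.66 with a pseudocount of 5 FPKM and 1.95 within bins of GC content and length. The droplet coats Cidec, at 978 and 2739 FPKM, and Plin2, at 195 and 553, stayed short of 4-fold. So did G0s2, an inhibitor of the lipase ATGL, at 163 and 510 FPKM. Lpl, Dgat2, Cidec, Plin2 and G0s2 were chosen with their values in view.

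Genes of the adipocyte identity list were mostly abundant in both libraries, though 1 of the list, Lipf, was listed at 0 FPKM in vehicle. All 20 adipocyte identity genes reached 5 FPKM in the higher library, with a median ratio of 0.55. Only Lipf, a lipase gene listed at 0 FPKM in vehicle, 0.05 in each T3 library and 17.0 on HFD, was called. Its levels in the vehicle table are not those of a fat cell marker, so its call is not read as a marker's. Fabp4, the fatty acid binding protein of fat cells, was at 10030 and 20060 FPKM. Pparg, the receptor that drives fat cell formation, was at 138 and 119, and the insulin-responsive transporter Slc2a4 at 99.6 and 79.4. Fabp4 and Pparg were chosen with their values in view. In bulk tissue, fewer cells of a type and less RNA per cell cannot be told apart.

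Of the thermogenic genes, 2 were lower. Ucp1 (ENSMUSG00000031710), the uncoupling protein of brown and beige fat cells, was at 24.3 FPKM in vehicle, 278 in Floxed (T3), 7.13 in ATRβKO (T3), 2.04 in Floxed (HFD) and 9.74 in ATRβKO (HFD). Floxed (HFD) was 11.9-fold under vehicle and under both T3 libraries, but less than 4-fold under ATRβKO (T3) after centring. Cidea, a droplet protein of brown and beige fat, was at 106 FPKM in vehicle, 162 and 35.6 in the T3 libraries and 16.3 and 21.3 in the HFD libraries. For Cidea too, Floxed (HFD) was less than 4-fold under ATRβKO (T3). Ucp1 and Cidea were the 2 called of 11 thermogenic genes compared, and the list's median was -0.41. Another 11 of its 22 members were under 5 FPKM in both libraries, and Adrb3, the fat cell's β3-adrenergic receptor, was at 167 and 119 FPKM.

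Thra, the gene for thyroid hormone receptor α, was at 50.4 FPKM in vehicle and 88.5 on HFD. Thrb, the gene for thyroid hormone receptor β, was at 4.44 and 4.38 FPKM, under the limit for comparison. It was at 4.43 in Floxed (T3) and 4.26 in ATRβKO (T3), but at 170 FPKM in ATRβKO (HFD), which carries the knockout label. In ATRβKO (HFD) Adipoq was at 140 FPKM and Slc2a4 was listed at 0, while the adipocyte identity list summed to 25280 FPKM. The reason for these values was not tested. In the list of thyroid hormone response genes 1 of 12 was 4-fold lower, Ucp1, and 1 higher, Atp2a1, which is also a muscle gene.

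Other metabolic lists held few called genes or none, beside 2.76% called higher and 4.33% lower among all genes compared. Nuclear-encoded oxidative phosphorylation (36 genes, median 0.31), pyruvate oxidation and the TCA cycle (29, -0.02), fatty acid oxidation (21, 0.24), cholesterol synthesis and uptake (21, 0.54), branched-chain amino acid catabolism (22, 0.00), the pentose phosphate and NADPH list (12, -0.03) and insulin signalling (14, -0.27) had no gene called. Glucose uptake and glycolysis had 1 of 20 called, Pgam2, the muscle form of phosphoglycerate mutase, at 32.6 and 193 FPKM. The median of that list was 0.46, and 0.39 over the 19 members outside the muscle list. Acaa1b, a peroxisomal thiolase, was the called member of the peroxisome list (1 of 21) at 12.0 and 55.7 FPKM. Its log2 ratio of 2.22 was 1.91 with a pseudocount of 5 FPKM. It was 1.89 when centred within bins of GC content and length, and either value ends that call. Sod3, the extracellular superoxide dismutase, was the called member of the oxidative stress list (1 of 21) at 50.2 and 202 FPKM. Its log2 ratio of 2.07 was 1.90 to 1.99 under 5 of 7 other scalings, which ends that call.

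**Figure D4:**
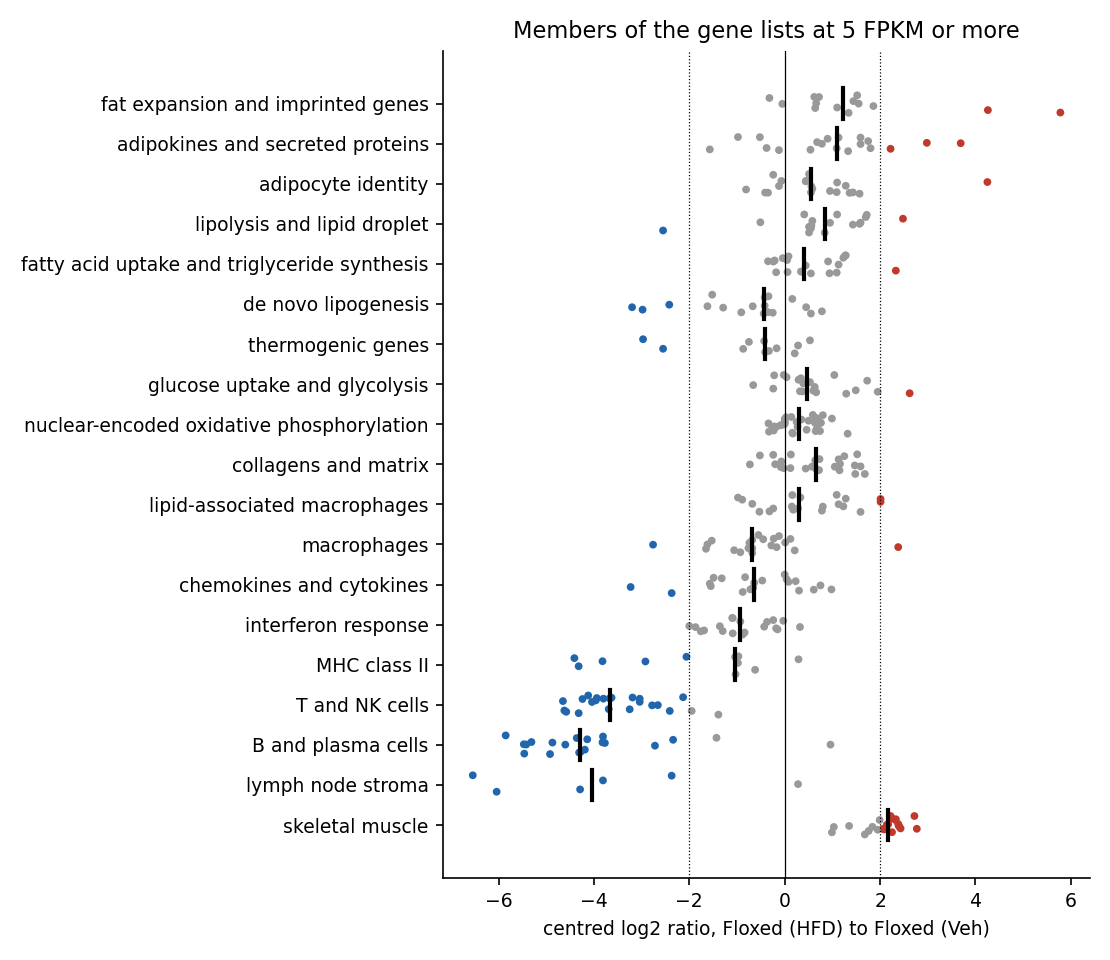
Each point is a list member among the genes compared, placed by its centred log2 ratio of HFD to vehicle, with members past 4-fold in red or blue, list medians as black bars and dotted lines at 4-fold. Medians run from 1.22 for fat expansion genes and 2.17 for skeletal muscle to -4.30 for B and plasma cells.

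Among immune genes, the largest differences were in lymphocytes. Of T and NK cell genes 21 of 23 were 4-fold lower, with a median of -3.67, and of B and plasma cell genes 18 of 20, with a median of -4.30. No member of either list was 4-fold higher, and the IgM heavy chain gene Ighm was the only member of either above 0. Cd79a, part of the B cell receptor, was at 94.4 FPKM in vehicle, 57.5 and 83.3 in the T3 libraries, 0.56 in Floxed (HFD) and 6.30 in ATRβKO (HFD). Cd4, the co-receptor of helper T cells, was at 27.0 FPKM in vehicle, 13.5 and 20.3 in the T3 libraries, 0.32 in Floxed (HFD) and 10.4 in ATRβKO (HFD). For both genes Floxed (HFD) lay under all 3 libraries of the vehicle table. Tcf7, a transcription factor of T cells, was at 40.2 FPKM in vehicle, 0.55 in Floxed (HFD) and 79.5 in ATRβKO (HFD).

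Genes of lymph node stroma were low in the same library, 5 of 6 compared being 4-fold lower. Of 11 genes found, only those 6 reached 5 FPKM in the higher library. Glycam1, Ccl21a and Ccl19 reached it in vehicle and not in Floxed (HFD), so the count leans on members high in vehicle. Glycam1, a mucin of high endothelial venules in lymph nodes, was at 106 FPKM in vehicle, 73.4 and 145 in the T3 libraries, 0.09 in Floxed (HFD) and 0 in ATRβKO (HFD). Ccl21a, which draws lymphocytes into nodes and has near-identical copies that can share its reads, was at 348, 153 and 298 FPKM and then at 4.0 and 12.3. Ccl19, a ligand of the same receptor, was at 62.0 FPKM in vehicle and 2.04 on HFD, and that receptor, Ccr7, at 31.6 and 0.25. The summed FPKM of the stroma list was 588, 313 and 590 in the vehicle table, 23.9 in Floxed (HFD) and 54.2 in ATRβKO (HFD).

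The T and NK list summed to 638, 303 and 507 FPKM in the vehicle table, 30.7 in Floxed (HFD) and 252 in ATRβKO (HFD). Without Ighm the B and plasma cell list summed to 1434, 881 and 1458 FPKM in the vehicle table, 65.1 in Floxed (HFD) and 838 in ATRβKO (HFD). In Floxed (HFD) 15 of the 26 T and NK genes were under 1 FPKM, as were 13 of the 20 B and plasma cell genes found. The B cell gene Mzb1, the stroma gene Chst4 and the class II gene H2-Eb2 were listed at 0 there. Lymph node genes thus moved with lymphocyte genes, and their part in the lymphocyte result was not tested. Leaving out the T, B, stroma and class II lists, a choice made after seeing the data, left 432 lower genes. Those lists took out only their own 48 called members, and other lymphocyte genes stayed among the 432. An example is the immunoglobulin segment Igkv1-117, at 93.7 FPKM in vehicle and 0.21 on HFD.

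Antigen presentation and chemokine genes were split. Of 11 MHC class II genes 5 were 4-fold lower, with a median of -1.04. H2-Ob and H2-Oa, subunits of the class II regulator known mainly from B cells, were at 57.4 and 23.1 FPKM in vehicle and at 1.58 and 0.14 on HFD. The classical chain gene H2-Aa was at 734 and 338 FPKM, short of 4-fold, and was chosen with its values in view. Ccl5, a chemokine of T and NK cells, was at 251 FPKM in vehicle and 24.3 on HFD, and Cxcl13, which draws B cells, at 38.9 and 6.25. These were the 2 called of 20 chemokines and cytokines. The inflammatory cytokine genes Tnf, Il1b and Il6 were under 5 FPKM in both libraries. Interferon response genes had a median of -0.93 with 0 of 19 called.

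**Figure D5:**
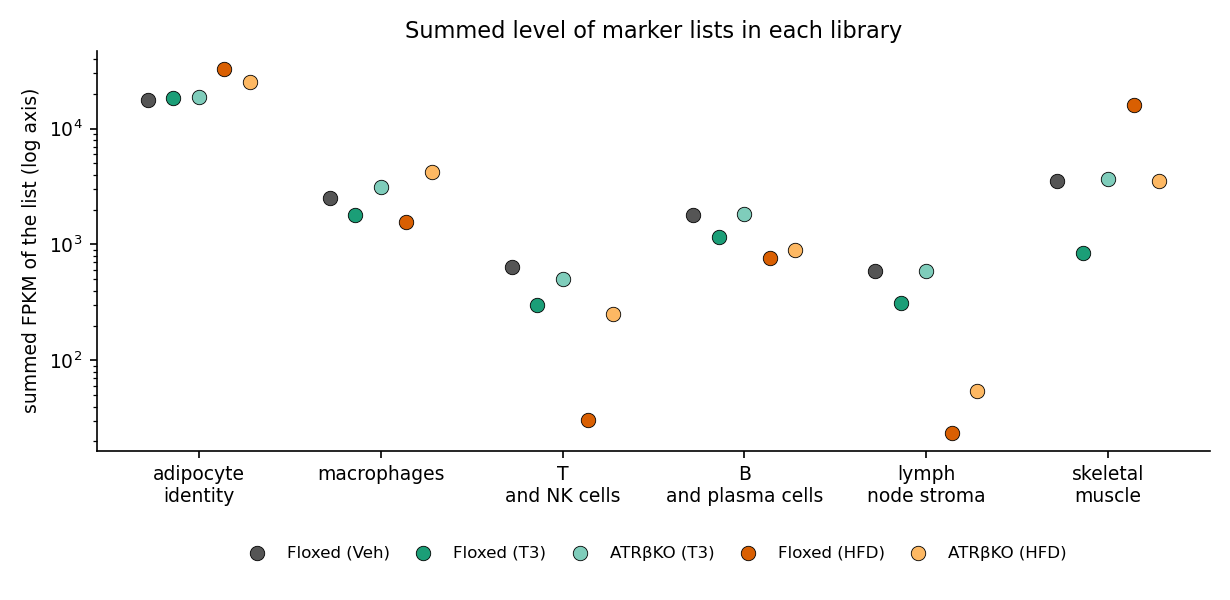
Points give the summed FPKM of 6 marker lists in each library on a log axis. Floxed (HFD) lies below the 3 libraries of the vehicle table for T and NK cells (30.7 FPKM), B and plasma cells and lymph node stroma (23.9), and above them for skeletal muscle and adipocyte identity. ATRβKO (HFD) has a larger total FPKM and is not on a common scale with the others.

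Few macrophage genes were called. General macrophage genes had a median of -0.68, with 1 of 21 called in each direction. Among all genes compared 2.76% were called higher and 4.33% lower. Timd4, a receptor of resident macrophages for dying cells, was at 25.2 FPKM in vehicle and 2.64 on HFD, and Mertk, a kinase receptor for dying cells, at 11.6 and 60.6. Mertk was at 309 FPKM in ATRβKO (HFD).

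Genes of lipid-associated macrophages had a median of 0.30, with 2 of 20 called, both higher. Trem2 (ENSMUSG00000023992), the lipid receptor that marks these cells, was at 20.5 FPKM in vehicle, 9.19 in Floxed (T3), 29.7 in ATRβKO (T3), 80.4 in Floxed (HFD) and 67.0 in ATRβKO (HFD). Floxed (HFD) was above the libraries of the vehicle table, and ATRβKO (T3) was within 4-fold of it. Lgals1, galectin-1, was at 795 and 3018 FPKM and is expressed by many cell types. Both calls rest on the centring: the log2 ratios of 2.01 were 1.84 to 1.93 for Trem2 and 1.84 to 1.92 for Lgals1 under 5 of 7 other scalings, and Lgals1 was at 1.48 when centred within bins of GC content and length. Gpnmb was at 17.8 and 29.5 FPKM and Cd9 at 61.0 and 63.7, both chosen with their values in view. Itgax, which encodes CD11c, was at 6.03 and 6.52, and none of these 3 reached 4-fold.

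Matrix genes lay above 0 without large differences. Of 25 collagens and matrix genes none was called, with 10 at least 2-fold higher, none 2-fold lower and a median of 0.66. Of all 11092 genes compared, 1002 were 2-fold higher and 1191 lower, and differences of that size are not called here. Col6a3, a collagen of the fat cell's coat, was at 100.4 and 150 FPKM, and Col1a1, fibrillar collagen, at 167 and 170. Both were chosen with their values in view. Among matrix enzymes and inhibitors 2 of 21 were called, both higher, beside 2.76% of all genes compared. Timp4, an inhibitor of metalloproteinases, was at 41.5 FPKM in vehicle, 57.8 and 37.4 in the T3 libraries, 194 in Floxed (HFD) and 3.67 in ATRβKO (HFD). The lists of preadipocytes and fibroblasts (19 genes, median 0.09), endothelium (18, 0.25) and mural cells (13, 0.47) had no gene called.

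Skeletal muscle genes were higher in the HFD library, 15 of 23 by 4-fold, with a median of 2.17 and every member compared above 0. Tnnc2, troponin C of fast fibres, was at 309 FPKM in vehicle, 62.1 in Floxed (T3), 307 in ATRβKO (T3), 1919 in Floxed (HFD) and 375 in ATRβKO (HFD). The summed level of the list was 3557, 841 and 3647 FPKM in the vehicle table, 15820 in Floxed (HFD) and 3517 in ATRβKO (HFD). The sum thus also differed between libraries of the vehicle table. Pgam2, Atp2a1 and Fitm1, named above, are genes of muscle, and the part of muscle in their values was not tested. Without the muscle list, a choice made after seeing the data, 291 higher genes were left. Only its own 15 called members came out, and Pgam2 and Fitm1, which are not in it, stayed. Lep, Mest and Sfrp5 are not in that list.

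Among markers of other tissues, mammary epithelium had 1 of 23 genes at 5 FPKM and none called. Krt79, a keratin of the skin's hair follicles, was the called gene of 4 skin and hair genes compared, at 1.34 FPKM in vehicle and 19.1 on HFD. Red blood cell genes were 2-fold or more higher in 4 of 5, none 4-fold, with a median of 1.36. Over all 11092 genes compared, 1002 were 2-fold higher.

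Immediate early genes had a median of -0.51 with 2 of 18 called, both lower. Egr3 was at 6.48 FPKM in vehicle and 0.59 on HFD, and Ier5 at 19.7 and 3.55.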

How the data were processed

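Gene-level values of 5 libraries from mouse inguinal fat were read from 2 tables deposited by the authors, of 53700 and 55416 genes. The deposited values were taken as FPKM, inferred from the values and from StringTie, which the submitters' processing notes name with HISAT2 and the build GRCm39, without versions. Illumina TruSeq libraries were sequenced, per the labels' protocols. Whether reads were counted by strand is not given in the sources used here. Depth per library could not be read from the values and is not stated, so no counting error is given. FPKM divides by library total and length, and the tables may have been normalized separately. Per the labels, each group is 1 library.

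The tables were joined by gene ID (907 IDs carry another name in the other table), and log2 ratios with a pseudocount of 1 FPKM were centred as described, which removed a shift of -0.086. The median over all 11092 genes compared was then -0.07. Fold values are FPKM ratios before centring, and log2 ratios are centred. A size rule of 4-fold replaced a test, since 1 library per group allows none. For 47 gene lists with 945 entries found, the median and the counts past 4-fold are described beside those of all genes. The genes named are the 12 highest and 12 lowest ratios at 20 FPKM or more after leaving out predicted and clone-named genes, receptor segments, ribosomal proteins, small RNAs and pseudogenes, up to 4 called members of each list, and 13 fixed genes. Some of these are not reported here. Others are said to have been chosen with their values in view. The members and lists were chosen with earlier results of these data known. GC content and length came from the longest GENCODE M21 transcript (GRCm38), matched for 99.7% of genes. The ratio step was tested on simulated data. Python 3.11.15 with pandas 2.3.3, NumPy 2.4.6 and matplotlib 3.10.9 was used. There were 17 alternatives planned and 3 added after seeing the data.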

Additional observations from a re-analysis of the deposited data

How the results depend on the processing

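Against 306 higher and 480 lower genes, a rule of 2-fold gave 1002 and 1191 and a rule of 8-fold 133 and 230. A pseudocount of 5 FPKM gave 122 and 161, and a floor of 20 FPKM 159 and 189. Keeping only genes left after the name rule gave 186 and 293, and asking for 4-fold from each of the 3 libraries tabulated with vehicle gave 203 and 297. Under the other alternatives, which cover scaling, lower pseudocount and floor, and GC content and length, both counts stayed within 1.5 times. Leaving out the lymphoid or muscle lists could take out only their own called genes, 48 lower and 15 higher. The change in those counts was thus set by list size. The higher share of called genes was 38.9% and ran from 33.0% to 45.7%. Scaling to the upper quartile, without the 50 most abundant genes, or to the median of genes at 20 FPKM or more moved the median of all genes by -0.12, -0.17 and -0.17. None of the 66 called named genes changed sign under the 14 alternatives in which a gene's ratio was read again. The changes of floor among them leave each gene's ratio as it was, so their outcome was fixed in advance. The called named genes were chosen for ratios of at least 4-fold, so a change of sign could hardly occur and its absence says little. Under 5 of 7 other scalings Trem2, Lgals1 and Sod3 fell under 4-fold. With a pseudocount of 5 FPKM 15 named genes did so, among them Ucp1 (-1.99), Timd4 (-1.91), Cxcl13 (-1.89), Mogat2 (1.30), Ier5 (-1.46) and Egr3 (-0.97). Centred within bins of GC content and length, 4 did: Acaa1b (1.89), Fitm1 (1.95), Lgals1 (1.48) and Tnni2 (1.93). Of 746 list medians recomputed, 39 moved by 0.25 or more. No median of at least 1 in size changed sign, which such alternatives could hardly bring about. No paired analysis was possible because each group has 1 library, so no library could be left out either. The depth of the libraries is not stated, so a value near the 5 FPKM floor carries a counting error of unknown size.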

Other observations

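Major urinary protein genes, which encode secreted lipocalins known mainly from the liver, were nearly absent on HFD. Of 22 Mup genes found, 9 were compared, all of which passed the floor in vehicle, and all 9 were 4-fold lower. Members under 5 FPKM in both libraries were not all lower, such as Mup20 at 0.96 FPKM in vehicle and 1.29 on HFD. The 22 genes summed to 5282 FPKM in vehicle, 13430 in Floxed (T3), 19130 in ATRβKO (T3), 79.7 in Floxed (HFD) and 95.9 in ATRβKO (HFD). Mup18 was at 3170 FPKM in vehicle and 27.8 on HFD. The copies are near-identical, so the level of any 1 of them is uncertain. Il31ra, which encodes a subunit of the interleukin 31 receptor, was at 263, 519, 719, 0.16 and 22.5 FPKM in the same libraries. It had the lowest ratio of the named genes, -7.74.

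Genes far above vehicle included several with known roles outside fat. Tph2, the serotonin-making enzyme of neurons, was at 0.81 FPKM in vehicle and 59.7 on HFD. Hpse2, a heparanase relative, was at 0.01 and 26.3 FPKM in the floxed libraries and 239 in ATRβKO (HFD). Grip2, a glutamate receptor partner, was at 0.62, 69.6 and 1056 in the same order, and Marveld2, tricellulin of cell junctions, at 1.4, 55.2 and 195. Wdr95 was at 0.05, 27.8 and 47.9 FPKM in that order. Rbbp8, a DNA end resection factor, was at 7.76 FPKM in vehicle, 200 in Floxed (HFD) and 7.87 in ATRβKO (HFD). Zfp981 was at 0.46 and 31.8 FPKM in vehicle and Floxed (HFD). Snhg9, a noncoding RNA, was listed at 0 in vehicle, at 9.37 in Floxed (T3) and 31.5 in Floxed (HFD).

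Some members went against their partners, and were chosen with their values in view. Ighm, the IgM heavy chain, was at 378 FPKM in vehicle and 696 on HFD while 18 of the 20 B and plasma cell genes were 4-fold lower. S100a9 was at 36.1 and 0.26 FPKM, while S100a8, whose protein pairs with that of S100a9, was at 23.3 and 34.3. Rpl5 was at 124 and 11.9 FPKM, the called gene of 30 cytosolic ribosomal protein genes. In the mitochondrial genome, mt-Co2 was at 264 and 961 FPKM with a list median of 0.19.

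A second gene ID named Ddit3 (ENSMUSG00000116429) was listed at 0 in all libraries but Floxed (HFD), where it was at 175 FPKM. The other ID of that name (ENSMUSG00000025408) overlaps it in the annotation and was at 28.5 FPKM in vehicle and 49.1 on HFD, so how reads were divided between them is uncertain. Serpina1c, at 2.64 and 196 FPKM, Fam177a2, at 0.46 and 57.3, and Eno1b, at 135 and 2.28, have close copies and are uncertain for the same reason. Eno1b was also at 465 FPKM in Floxed (T3) and 0.59 in ATRβKO (T3), so its HFD value lies within the range of the vehicle table. Eno1b was chosen with its values in view.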
